A study of Mus musculus with 6 samples.

Results

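Hey1 and Hey2 were the 2 genes, of 2031 in the deposited table, whose names fell in the Notch families searched for: protein-coding genes named Notch, Dll, Jag, Hes or Hey with a number, together with Heyl and Nrarp. Every gene of that table had been selected by the authors for a difference between the groups. No receptor, ligand or Hes gene of the Notch pathway is among them, and those genes were not analysed here. The values below therefore concern a pair of nuclear effectors and not the pathway as a whole.

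RNA was sequenced from cells differentiated from J1, a mouse embryonic stem cell line of the 129S4/SvJae strain, as embryoid bodies formed in hanging drops over 3 days on a route towards heart muscle. The control group, NC, was kept in a conventional incubator (3 libraries), and the exposed group, MF, in a static magnetic field incubator (3 libraries). Both groups derive from this single line, and stem cells were grown with serum and leukemia inhibitory factor before differentiation. The sources used here give neither the strength of the field nor the length of exposure nor the day of collection. The series calls the libraries biological triplicates but does not say which cultures they came from. The p-values therefore weigh the group difference against the spread between these libraries, whose independence is not known.

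In the Notch pathway a ligand on one cell binds a Notch receptor on its neighbour. The receptor is then cut by an ADAM protease and by gamma-secretase, and its freed intracellular part enters the nucleus, where it joins the DNA-binding protein RBPJ and a Mastermind-like coactivator. Genes of the Hes and Hey families are the best known direct targets of this complex and encode basic helix-loop-helix repressors. In the mouse embryonic heart Hey1 marks atrial muscle and Hey2 the compact wall of the ventricles, both are used in the endocardium and arterial endothelium, and together they are needed for the heart valves and the arterial vessels.

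The recovered library totals lay between 14929232 and 19176383 counts. The libraries of replicate 2 stood apart from the others. Over the 1026 genes that rose in MF, the median level of MF replicate 2 was 0.81 above the NC mean on the log2(FPKM + 0.5) scale, against 1.54 and 1.46 in MF replicates 1 and 3. NC replicate 2 was likewise the lowest of its group for these genes, at -0.29, against 0.10 and 0.17 in the other NC libraries. For 83.2% of the genes that rose, the lowest of the MF libraries was replicate 2, and this held for Hey1 and Hey2 as well.

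Both Hey genes were higher in MF than in NC, Hey2 from a very low level and Hey1 from a moderate one. Hey2 rose 6.71-fold and Hey1 2.69-fold in a quasi-likelihood fit by edgeR, adjusted by Benjamini and Hochberg's method over the 1651 named genes of the table whose mean reached 0.5 FPKM (a count scaled by gene length and library total). That mean was taken over all 6 libraries. Hey2, with a mean of 0.276 FPKM in NC and 1.86 FPKM in MF, passed this filter only through MF. Neurl1b, Meox1 and Aldh1a2, named below, passed in the same way, so their calls are descriptions. Of those 1651 selected genes, 62.1% were called higher in the same fit and 35.4% lower, so a call of both Hey genes is near the background of the table and adds no support of its own. "Rose" and "fell" are used below for genes that passed this test. Because the embryoid bodies were measured in bulk, more cells that express a gene and more RNA per cell cannot be told apart.

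Hey2 (ENSMUSG00000019789, mm10 chromosome 10, 30832359 to 30842801, minus strand) has 5 exons in its longest coding transcript in the GENCODE M21 annotation, and no other annotated gene overlaps it. Its level was 0.195, 0.0946 and 0.540 FPKM in NC replicates 1, 2 and 3, which rest on 14, 7 and 37 counts. In MF replicates 1, 2 and 3 it was 3.09, 0.622 and 1.86 FPKM, from 272, 48 and 139 counts. The groups did not overlap, but MF replicate 2 stood only 1.15-fold above NC replicate 3. The exact 95% Poisson intervals of that pair, which cover counting error alone, ran from 0.459 to 0.825 FPKM in MF replicate 2 and from 0.380 to 0.744 FPKM in NC replicate 3, so these neighbours did not differ beyond counting error. MF replicates 3 and 1, at 6.73 and 11.2 times the NC mean, lay clear of every NC library. The group means were 0.276 ± 0.233 FPKM in NC and 1.86 ± 1.23 FPKM in MF (SD, n = 3). The log2 fold change was 2.75 with an SE of 0.81, and edgeR's adjusted p was 0.0236.

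The region just upstream of Hey2 is shown because RBPJ, through which Notch acts, recognises a short core (TGGGAA), and the position of that core is background to a Notch target. The sequences are from RefSeq on GRCm38.p6, given 5′ to 3′ on the minus strand, with the core or its reverse complement in capitals. One stretch is 232 bases long and ends next to the gene's 5′ end in the deposited table (chr10:30842802-30843033), and the other is 30 bases at that end (chr10:30842769-30842798).
Hey2 upstream: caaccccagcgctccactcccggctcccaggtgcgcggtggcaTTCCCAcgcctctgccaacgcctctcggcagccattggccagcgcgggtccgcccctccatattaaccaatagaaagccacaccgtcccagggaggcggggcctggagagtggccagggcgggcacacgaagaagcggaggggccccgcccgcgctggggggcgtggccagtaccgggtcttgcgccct
Hey2 start: tgggctgcagcgTGGGAAagaacctccagg

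The RefSeq window of 300 bases around the Hey2 start, searched on both strands, held 2 matches to TGGGAA. One lies on the opposite strand 207 bases before the RefSeq start site, and the other, on the gene's own strand, starts 3 bases before that site and runs across it. The gene's 5′ end in the deposited table lies 18 bases further upstream than the RefSeq start, so against that end the first match begins 189 bases before it and the second begins 15 bases inside the transcript. At least 1 match was present in 25.6% of the 32851 promoter windows of the same length, and 2 or more in 3.79%. The window held 0 matches to CACGTG, the E-box form (7.15% of windows), and 0 to CACNAG, the N-box (42.5% of windows); both are motifs known to be bound by repressors of the Hes and Hey families. These letters are a description of the reference sequence, not evidence of binding in these cells.

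Hey1 (ENSMUSG00000040289, mm10 chromosome 3, 8663359 to 8667256, minus strand) also has 5 exons in its longest coding transcript and no overlapping gene in the annotation. Its level was 2.05, 3.56 and 3.55 FPKM in NC replicates 1, 2 and 3, from 105, 187 and 173 counts. In MF replicates 1, 2 and 3 it was 10.9, 4.50 and 9.18 FPKM, from 685, 247 and 488 counts. Again the groups did not overlap and MF replicate 2 lay closest to NC, 1.27-fold above NC replicate 2. Their counting intervals overlapped only at the edge (3.96 to 5.10 FPKM against 3.06 to 4.10 FPKM), which does not show that these levels agree within counting error. MF replicates 1 and 3 stood at 3.58 and 3.01 times the NC mean. The means were 3.05 ± 0.865 FPKM in NC and 8.21 ± 3.33 FPKM in MF (SD, n = 3), with a log2 fold change of 1.43, an SE of 0.47 and an edgeR adjusted p of 0.0271. Among the tested genes of the table, 58.4% (964) likewise had every MF library above every NC library, while 1052 had a positive log2 fold change.

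**Figure D1:**
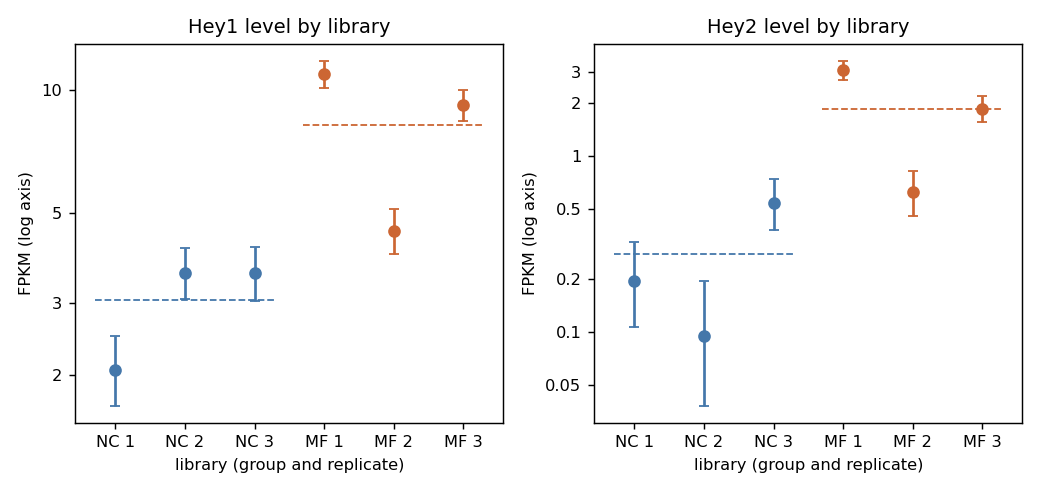
FPKM of Hey1 and Hey2 (log axis) in each of the 6 libraries; points are single libraries, bars the exact 95% Poisson interval of the count, and dashed lines the group means. MF replicate 2, at 4.50 FPKM for Hey1 and 0.622 FPKM for Hey2, lies next to the highest NC library, while MF replicates 1 and 3 lie well above.

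The order of the levels among the libraries was the same for both genes on the MF side and differed on the NC side. From high to low, MF ran replicate 1, replicate 3, replicate 2 for each of them, an order also seen in 48.7% of the genes that rose. In NC, Hey2 was lowest in replicate 2 and highest in replicate 3, and the counting intervals of replicates 2 and 1 overlapped. Hey1 was lowest in NC replicate 1, and its levels in NC replicates 2 and 3 differed by far less than their counting error. The spread within NC was wider for Hey2, with an SD of 84.5% of the mean, than for Hey1, with 28.3%; in MF these shares were 66.4% and 40.5%.

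Compared per length within a library, Hey1 was the more abundant gene in all 6 libraries. The FPKM of Hey1 was 10.6, 37.6 and 6.58 times that of Hey2 in NC replicates 1, 2 and 3, and 3.54, 7.24 and 4.94 times in MF replicates 1, 2 and 3. The ranges overlap, since MF replicate 2 had a higher ratio than NC replicate 3. The log2 ratio of Hey2 to Hey1 was -3.78 ± 1.30 in NC and -2.33 ± 0.52 in MF (SD, n = 3), a difference of 1.46. An exact two-sided permutation test over libraries gave p = 0.2, but with 3 against 3 libraries it cannot go below 0.1, so it could not have passed 0.05 and settles nothing either way. Between libraries of the same replicate number the ratio was higher in MF by 1.57, 2.38 and 0.41 log2 units for replicates 1, 2 and 3; the paired exact test is likewise too small to pass, with p = 0.25 as the smallest it can give. Without NC replicate 2, where Hey2 rests on 7 counts, the difference between the group means was 0.73.

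Both fold changes can be set against those of the other genes in the table. Hey2 ranked 176 and Hey1 647 by log2 fold change among the 1052 tested genes with a positive value, whose median was 1.62. In the authors' deposited table, the log2 fold change was 2.75 for Hey2 and 1.43 for Hey1, with adjusted p-values of 0.00277 and 0.00627. The median log2 fold change of all tested genes was 1.22, and Hey2 lay 1.53 and Hey1 0.21 above it. Scaling by TMM assumes that most genes do not differ, which a table selected for differences does not meet. It moved that median by -0.70, to 0.52, and it called 291 genes higher (17.6%) and 589 lower in place of 1026 and 584. Under TMM the log2 fold change was 2.05 for Hey2 (adjusted p = 0.0527) and 0.66 for Hey1 (adjusted p = 0.201), both by edgeR and neither past the threshold.

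The calls of both genes depended on the number of tests and on single libraries. The authors' adjusted p-values imply that they had made 19069 tests. With adjustment over that number, edgeR called 0 genes of the table (0.0%), and the adjusted p was 0.273 for Hey2 and 0.313 for Hey1; 97.7% of the tested genes had an unadjusted p under 0.05, both Hey genes among them. Also with adjustment over 19069 tests, DESeq2 gave 0.0295 for Hey2 and 0.0898 for Hey1, and called 29.0% of the tested genes higher. With replicate numbers as a block and the same adjustment over 19069 tests, edgeR gave 0.0633 and 0.223 and called 22.8% higher; adjusted over the 1651 genes, the block kept both calls (0.00548 and 0.0193). Leaving out NC replicate 1, MF replicate 1 or MF replicate 3 took the adjusted p of both genes above 0.05 by edgeR over the 1651 genes, with log2 fold changes of 2.55, 2.16 and 2.74 for Hey2 and 1.21, 1.16 and 1.34 for Hey1; of the tested genes, 25.6%, 21.6% and 0.727% were then called higher. Without both replicate 2 libraries the log2 fold changes were 2.75 for Hey2 and 1.85 for Hey1, with edgeR adjusted p-values of 0.000606 and 0.000338, where 62.2% of the tested genes were called higher. Without NC replicate 3, the highest control library for Hey2, its log2 fold change was 3.67 (edgeR adjusted p = 0.0172). Both genes were higher in MF under every setting in which they were fitted. For each of them every MF library lay above every NC library, so leaving out libraries could not have reversed this direction.

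**Figure D2:**
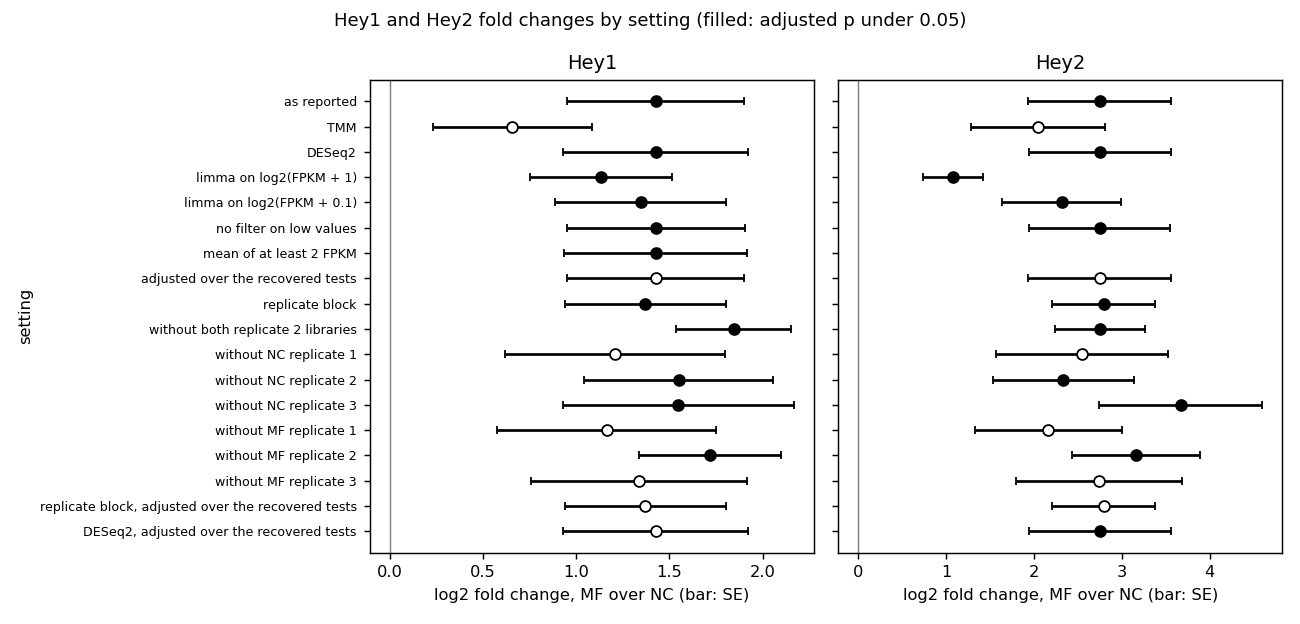
Log2 fold change of MF over NC for Hey1 and Hey2 (x axis; bars are the SE) under each setting of the test (y axis); filled points have an adjusted p under 0.05. All points lie to the right of 0, between 0.66 and 1.85 for Hey1 and between 1.08 and 3.67 for Hey2, and 7 settings for Hey1 and 6 for Hey2 are open.

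Other components of the Notch pathway were taken from a list of 48 genes that covers receptor processing, ligand handling, the nuclear complex and its corepressors. Of these, 7 are in the table, all higher in MF in the authors' deposited table, where 63.2% of all genes are higher. Presence in the table is itself a call by the authors, made for 2031 genes out of 19069 implied tests. In each of the 7 every MF library lay above every NC library. The same held for 964 of the tested genes (58.4% of all 1651), while only 1052 of them had a positive log2 fold change. This pattern is therefore common among genes that are higher in MF. Of the 6 that passed the filter on low values, 5 rose and 0 fell, against 62.1% and 35.4% of the tested genes of the table (0 fell by DESeq2 or limma too, and 0 were lower at an unadjusted p under 0.05). Without both replicate 2 libraries edgeR called 6 of them, without NC replicate 1, MF replicate 1 or MF replicate 3 it called 0, without NC replicate 2 it called 1 and without NC replicate 3 it called 2. With adjustment over 19069 tests or with TMM scaling it called 0. Their median log2 fold change was 1.16, beside 1.22 for all tested genes and 1.62 for the tested genes with a positive value. The remaining 41 were not analysed here.

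Among genes that process receptors, Furin, the protease that cuts Notch in the secretory pathway and many other proproteins, was the most abundant. It stood at 11.4, 7.90 and 12.1 FPKM in NC replicates 1 to 3 and at 30.6, 12.9 and 24.7 FPKM in MF replicates 1 to 3. MF replicate 2 was again close to NC, 1.07-fold above NC replicate 3. Furin rose 2.18-fold (log2 fold change 1.12, SE 0.43, edgeR adjusted p = 0.0338). Aph1b, a subunit of gamma-secretase, had 0.903, 0.757 and 0.869 FPKM in NC and 2.34, 1.53 and 1.96 FPKM in MF. It rose 2.31-fold (edgeR adjusted p = 0.0329), a smaller change than for either Hey gene. Its lowest MF library lay 1.70-fold above its highest NC library, against 1.27-fold for Hey1 and 1.15-fold for Hey2. Mouse Aph1b has a close paralog, Aph1c, and the sources used here do not say how reads shared between them were counted, so its level is uncertain.

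On the ligand side, Neurl1b, an E3 ubiquitin ligase that acts on Notch ligands, had the largest change of the list. Its level was 0.0706, 0.294 and 0.243 FPKM in NC, from 7, 30 and 23 counts, and 1.51, 0.517 and 1.31 FPKM in MF, from 183, 55 and 135 counts. It rose 5.46-fold (log2 fold change 2.45, SE 0.70, edgeR adjusted p = 0.0229), and the lowest MF library lay 1.76-fold above the highest NC library. Its mean was 0.203 FPKM in NC and 1.11 FPKM in MF, so only its MF level took it past the filter. Dlk2, a ligand-like protein that lacks the domain with which canonical ligands bind the receptor, had 0.877, 0.764 and 0.634 FPKM in NC and 1.55, 1.58 and 1.86 FPKM in MF. Its libraries were tight in both groups, yet with 20 to 64 counts each it did not pass edgeR's test (log2 fold change 1.13, SE 0.55, adjusted p = 0.0651). DESeq2 gave it an adjusted p of 0.0372.

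In the nuclear complex, Maml2 and Maml3, both Mastermind-like coactivators of Notch and RBPJ, rose 2.21-fold and 2.25-fold (edgeR adjusted p = 0.0428 and 0.0331). Maml3 went from 1.94, 0.918 and 2.38 FPKM in NC to 4.71, 3.11 and 3.97 FPKM in MF. Maml2 went from 1.03, 0.452 and 0.964 FPKM to 1.85, 1.61 and 1.94 FPKM, and its MF libraries, MF replicate 2 included, were close to each other. Tle2, a corepressor of the Groucho family that Hes proteins recruit, was at 0.0821, 0.150 and 0.355 FPKM in NC and at 0.813, 0.421 and 0.612 FPKM in MF, and fell below the filter. In 6 of the 7 listed genes MF replicate 2 was the lowest MF library, and Dlk2 was the exception.

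**Figure D3:**
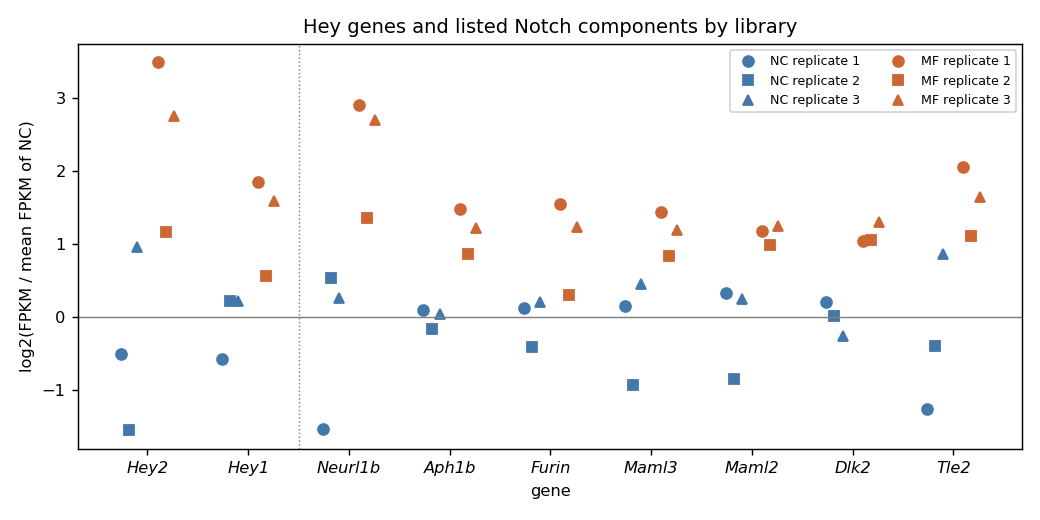
Log2 of the FPKM over the mean FPKM of NC (y axis) for Hey2, Hey1 and the 7 listed Notch components in the table (x axis), with 1 point per library; colour marks the group and shape the replicate. All MF points lie above all NC points of the same gene, and the MF replicate 2 squares of Furin, Hey2, Tle2 and Hey1 lie nearest to NC.

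A further pair of genes carries Notch in the description given in the table; they were picked after their values had been seen and are given as values. Nle1, the notchless homolog, which is also a ribosome assembly factor, was lower in MF, at 16.1, 14.1 and 15.0 FPKM in NC and at 5.47, 9.59 and 5.78 FPKM in MF, and fell 2.17-fold (edgeR adjusted p = 0.0291). Minar1, described there as a NOTCH2-associated receptor, had 0.0176, 0.128 and 0.0553 FPKM in NC and 0.660, 0.115 and 0.583 FPKM in MF. Its groups overlap, since MF replicate 2 lies below NC replicate 2, and it fell below the filter.

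Markers of the cell types in which Hey genes are known to be used also differed between the groups, as did every gene of the table by the authors' selection. The counts below stand beside 62.1% of all tested genes called higher and 35.4% called lower, and are a description of the genes that are in the table. Counts of listed genes in the table stand beside 2031 genes out of the 19069 tests implied for the authors. Of 15 listed arterial and endocardial genes, 5 are in the table and all 5 rose, with summed levels from 19.2 to 39.5 FPKM in NC and from 42.0 to 140 FPKM in MF. Nrp1, a receptor for vascular growth factor and semaphorins, rose 7.81-fold. It had 3.88, 1.61 and 3.69 FPKM in NC and 37.9, 6.41 and 27.4 FPKM in MF. Unc5b and Plvap rose 2.10-fold and 3.66-fold with overlapping groups. Of 20 general endothelial genes 8 are in the table, of which 7 rose and Pecam1 fell. Cdh5, the cadherin of endothelial junctions, rose 3.28-fold from 2.28, 3.99 and 6.49 FPKM to 19.5, 9.11 and 13.2 FPKM, and Kdr, the main receptor for vascular growth factor, rose 5.83-fold. Pecam1, which naive stem cells also express, stood at 38.2 FPKM in NC replicate 2 against values from 5.81 to 8.75 FPKM in the other 5 libraries. The summed level of the endothelial genes ran from 15.3 to 46.0 FPKM in NC and from 28.7 to 53.7 FPKM in MF, so this sum overlapped between the groups. The overlap came from NC replicate 2 alone, where Pecam1 made up 38.2 of the 46.0 FPKM. In NC replicates 1 and 3 the sums were 15.3 and 24.0 FPKM, below every MF library.

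Chamber muscle genes were also higher. All 5 tested ventricular genes of the 6 in the table (9 listed) rose, with summed levels from 6.29 to 8.87 FPKM in NC and from 40.2 to 75.8 FPKM in MF. Among them Myl3, a myosin light chain, rose 7.46-fold, Myh7, the slow myosin heavy chain, 8.76-fold with overlapping groups, and Mpped2 3.93-fold. Pln, which encodes phospholamban and was below the filter, had 0 counts in NC replicates 1 and 2 and 79 counts in MF replicate 2, against 4 in each of the other MF libraries. All 5 atrial genes in the table (12 listed) rose, with summed levels from 15.6 to 30.8 FPKM in NC and from 24.2 to 336 FPKM in MF. Of these, Myl7, an atrial myosin light chain, was at 288, 11.7 and 129 FPKM in MF replicates 1, 2 and 3, so MF replicate 2 lay inside the NC range of 10.7 to 24.3 FPKM, and the atrial sum overlapped between the groups. Myl4 rose 6.80-fold and Nr2f2, a nuclear receptor of atrial muscle and veins, 4.37-fold.

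Mural and epicardial genes (6 of 15 in the table) ran from 3.15 to 4.70 FPKM summed in NC and from 9.45 to 24.6 FPKM in MF, and all 4 tested members rose, Pdgfrb 3.59-fold, Rgs5 8.15-fold and Aldh1a2 4.64-fold. Of 15 genes of presomitic mesoderm, where Notch drives segmentation, Meox1 alone is in the table and it rose 12.0-fold. Of 16 neural genes Dcx alone is in the table. It was below the filter, with 0 counts in NC replicate 2 and its highest level, 1.62 FPKM, in MF replicate 2. Pluripotency genes went the other way. All 6 in the table (19 listed) fell, with summed levels from 342 to 877 FPKM in NC and from 72.9 to 216 FPKM in MF; Utf1, Klf2 and Lefty2, the most abundant, stood at 0.191, 0.311 and 0.147 times their NC level. Without both replicate 2 libraries the same numbers of marker genes rose (27) and fell (7) over these lists, while without MF replicate 3 they were 2 and 0 of the 34 tested. With TMM scaling 13 rose and 7 fell, and over 19069 tests edgeR called 0. The part of these marker levels in the differences of Hey1 and Hey2 was not tested.

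**Figure D4:**
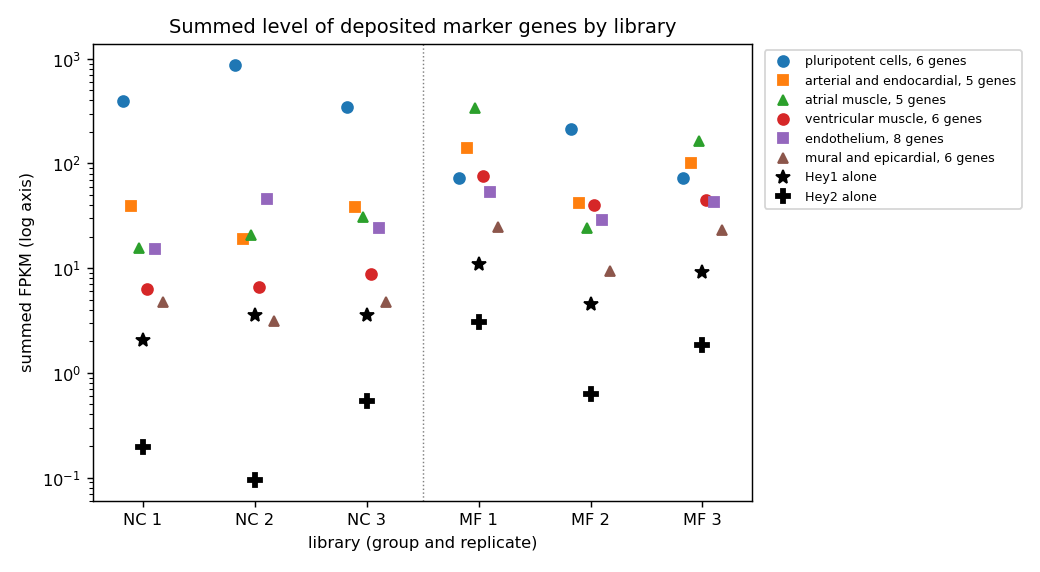
Summed FPKM (log axis) of the deposited genes of 6 marker lists in each library, with Hey1 and Hey2 alone in black. MF replicate 2 lies between NC and the other MF libraries for the arterial and endocardial sum, at 42.0 FPKM, and for the pluripotency sum, at 216 FPKM.

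The table labels 13 genes as basic helix-loop-helix factors, the class of the Hey proteins, of which 10 rose, 2 fell and Bhlhe41 did not pass, beside 62.1% higher and 35.4% lower over all tested genes. By mean level in MF, Hey1 was the fourth and Hey2 the eleventh of them. Hand1, at 113 ± 45.8 FPKM in MF, Twist1, at 50.9 ± 29.1, and Hand2, at 40.0 ± 31.9 (SD, n = 3), were more abundant, and all of them rose. Their lowest MF library, replicate 2, lay 1.05-fold above the highest NC library for Hand2 and 1.09-fold for Hand1, against 3.04-fold for Twist1.

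The genes whose profile over the 6 libraries was most like that of each Hey gene were found among protein-coding genes whose mean was 2 FPKM or more. Likeness was the root mean square difference of log2(FPKM + 0.5) profiles after each was centred on its own mean. For Hey2 the nearest were Rbm24 (0.14 log2 units), Plxnd1 (0.16), Ece1 (0.21), Dlx3 (0.22) and Dact1 (0.22), out of 940. Rbm24, an RNA-binding protein of heart and skeletal muscle, had 0.951, 0.605 and 2.13 FPKM in NC and 7.86, 2.08 and 4.63 FPKM in MF, so MF replicate 2 lay just below NC replicate 3. With a pseudocount of 0.1 only Rbm24 of these 5 stayed among the nearest, beside Capn6, Tspan18, Kdr and C1ql2. For Hey1 the nearest, out of 939, were Kif26a (0.10), Tanc2 (0.12), Eef2k (0.15), St3gal1 (0.15) and Inafm2 (0.15), and all 5 stayed with the other pseudocount. The Hey genes themselves differed by 0.34, and Hey1 took rank 100 among the profiles nearest to Hey2. With a pseudocount of 0.1 the Hey genes differed by 0.76 and Hey1 took rank 298, so this distance and rank depend on the pseudocount.

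No other protein-coding gene within 500 kb of either Hey gene is in the table. The annotation places 5 such genes around Hey2, the nearest being Ncoa7 at 29.0 kb, and 3 around Hey1, the nearest being Stmn2 at 101.8 kb. These neighbours were not analysed here.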

How the data were processed

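Per the submitters' processing notes, reads were handled with HISAT2 2.0.5 and featureCounts on mm10, without settings; the sources used here do not state strand use. Per the file headers, each deposited table holds the authors' raw count and FPKM for every gene and a signal scaled by size factor. It also holds p-values, before and after adjustment, and a log2 fold change from a comparison by the authors. Library totals were recovered from count, FPKM and gene length; deposited genes take between 5.68% and 10.4% of them, and 48 rows without a gene name (at most 0.0390%) stayed out. At these depths 3 counts correspond to between 0.0341 and 0.0438 FPKM for Hey2. The tests used edgeR 4.0.16 in R 4.3.3 on the counts, with these totals as library sizes and group as the only term; alternatives used DESeq2 1.42.0 and limma 3.58.1. The fit was run on simulated data as a check of the code. That simulation had a lower dispersion and fewer changed genes than these data, so it does not give the error rates here. The authors had selected the table on these libraries (adjusted p of at most 0.0499), so adjustment over its 1651 genes does not control errors over the genome.

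Members and lists were chosen with earlier results of these data known. Named genes are the members, all deposited genes of the component list, the 3 most abundant deposited genes of each marker list and the 5 profiles nearest to each member. Nle1, Minar1, Pln and the other helix-loop-helix genes were picked after their values had been seen. Across genes, how far a library deviated from its group mean correlated between libraries of the same number at 0.40, 0.54 and 0.35 for numbers 1, 2 and 3, so the numbers were taken as pairs for the replicate block; this comes from the values, and NC replicate 3 correlated more with MF replicate 1 (0.54). No library repeated another within counting error.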

Additional observations from a re-analysis of the deposited data

How the results depend on the processing

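Of 17 alternatives, 10 kept the call of Hey1 and 7 lost it; of 16 for Hey2, 10 kept it and 6 lost it. With TMM the log2 fold change was 2.05 for Hey2 and 0.66 for Hey1, and 0 Hey genes and 0 listed components were called. Adjusted over 19069 tests, edgeR called 0 of each at unchanged log2 fold changes of 2.75 and 1.43, edgeR with the replicate block 0 of each at 2.79 and 1.37, and DESeq2 1 of each, with Hey1 at 1.43 not past the threshold. These last combinations with the block and with DESeq2 were chosen after seeing the data. Adjusted over the 1651 genes, the replicate block changed no call of a Hey gene or component, and Dlk2 came to 0.0503. In limma on log2(FPKM + 1), a scale that compresses low levels, Hey2 came to 1.08 and kept its call. A filter at 2 FPKM left 1 Hey gene and 2 components, since the others were no longer tested. Leaving out each library in turn gave from 0 to 2 Hey genes and from 0 to 5 components higher, from 2.16 to 3.67 for Hey2 and from 1.16 to 1.72 for Hey1 (adjusted p up to 0.0822 and 0.0941), and from 0.73 to 1.99 for the difference of the Hey2 to Hey1 log2 ratio. Counts of marker genes under each setting, and the paired test of that ratio, were added after seeing the data. None of these fits called a Hey gene or component lower. Leaving out libraries could not have done so, since every MF library lay above every NC library for these genes. Where calls were lost, the cause was not tested, except that the larger number of tests and the missing library are part of the setting. Depth limits the precision of Hey2 in NC, which rests on 7 to 37 counts.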
